A study of Nicotiana tabacum with 12 samples.

Results

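L16 is a tobacco line that expresses *DcLCYB1*, the lycopene β-cyclase 1 gene of carrot. The leaf transcriptome of this line was compared with that of the wild type, using the 3 libraries labelled L16 and the 3 labelled wild type, which are 6 of the 12 libraries of the series. The remaining libraries come from the sister lines L14 and L15, with 3 each. L16 and the wild type share the cultivar Xanthi NN, the leaf tissue, the age of 5 weeks, and germination on MS medium with sucrose and kanamycin. They differ in the transgene and in whatever else distinguishes 1 transgenic line from its parent, so the effect of the transgene and that of the line cannot be told apart with L16 alone. The promoter of the transgene is not given in the sources used here. The generation is given as T4 in one label text and T3 in another. Each genotype has 3 replicates, which the methods call biological. Whether each came from a separate plant is not given in the sources used here, and the p-values measure the spread between these libraries. In bulk leaf RNA, fewer cells of a type and less RNA per cell cannot be told apart.

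Lycopene β-cyclase closes the rings at the ends of lycopene to give β-carotene, in the plastids. β-Carotene and the xanthophylls made from it take part in light harvesting and photoprotection, and they are the precursors of the hormones abscisic acid and strigolactone. Gibberellins and the side chain of chlorophyll come from the same plastid isoprenoid precursor as the carotenoids. The question of the comparison is how far a change in this pathway extends into the rest of the leaf transcriptome.

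The libraries were made with a kit that reads the end of each polyadenylated transcript, so counts were not corrected for transcript length. Levels are compared between genes with a limit. In the 6 libraries, 33.4% to 38.1% of the listed reads lay outside genes and 19.1% to 21.4% were not uniquely aligned. Levels are given as CPM, gene counts scaled to a common library total with TMM factors, a correction for differences in composition between libraries. Differences were assessed by edgeR's quasi-likelihood test, and genes were taken as differentially expressed at a Benjamini-Hochberg adjusted p-value under 0.05. The tables name genes by NiTAB 4.5 identifier. None of the 35519 identifiers matched the RefSeq gene table of tobacco, and the supplementary tables read here name genes by Arabidopsis identifiers only. No identifier therefore has a gene name or function here, and neither the pathway genes nor leaf markers could be looked up. The transgene itself was not analysed here, because the rows used are those with NiTAB or spike-in names.

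The gene counts were from 16786444 to 18177338 in the L16 libraries and from 12887911 to 24343174 in the wild type libraries. At these depths 3 counts, taken as the limit of detection, correspond to between 0.165 and 0.179 CPM in L16 and between 0.123 and 0.233 CPM in the wild type, before TMM scaling. These limits cover counting error only. Between 20694 and 21271 genes reached 3 counts in an L16 library, against 20103 to 21086 in a wild type library (exact permutation test, two-sided, p = 0.2, adjusted over 6 library measures 0.4). With 3 libraries against 3, this test cannot give a p below 0.1. The part of the listed reads that lay outside genes was 34.5% ± 1.02 (SD, n = 3) in L16 and 37.1% ± 1.30 (SD, n = 3) in the wild type, and the groups did not overlap (exact permutation test, p = 0.1, adjusted 0.3).

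In L16, 5123 of the 18823 tested genes were differentially expressed (27.2%), of which 2739 were upregulated (14.6% of the tested genes) and 2384 were downregulated (12.7%). The median change of the upregulated genes was 1.13 on the log2 scale, or 2.19-fold, and that of the downregulated genes was -0.90, or 1.86-fold lower. The middle 80% of the differentially expressed genes had absolute log2 fold changes between 0.52 and 2.51. Over all tested genes the median absolute log2 fold change was 0.47, and the median signed value was 0.0045. The excess of upregulated over downregulated genes depended on the scaling. With upper-quartile scaling, 2582 genes were upregulated and 2598 were downregulated. The total depended on the libraries in the fit, which held L14 and L15 as well. With only the libraries compared, 3779 of 17335 tested genes were called (21.8%). With library sizes taken from the spike-ins, 3765 of the 18823 genes were called.

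The synthetic spike-in RNAs, which the plant does not make, also differed between these libraries. SIRV4 and SIRV7 together took 10.6%, 9.997%, and 8.30% of the spike-in counts in L16 replicates 1, 2, and 3, and 7.13%, 6.90%, and 6.86% in wild type replicates 1, 2, and 3. The shares were 8.65% to 10.3% in L14 and 8.50% to 9.85% in L15, in the range of L16, and replicate 3 had the lowest share in each of the 4 genotypes. L16 and the wild type did not overlap in this share (exact permutation test, p = 0.1, adjusted 0.3). SIRV4 and SIRV7 were the only SIRVs to pass edgeR's test between L16 and the wild type. The p-value of this share does not allow for their choice. With this share as a covariate, 1220 genes were differentially expressed, 757 upregulated and 463 downregulated. Of the 5123 genes, 932 were still called in that fit and 4886 kept their direction. With the first principal component of all spike-ins as the covariate, 2561 genes were called, and 2228 of the 5123 were among them. Each covariate separated the L16 from the wild type libraries, so that the part of the gene changes that goes with the spike-ins and the part that goes with the genotype cannot be told apart.

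**Figure D1:**
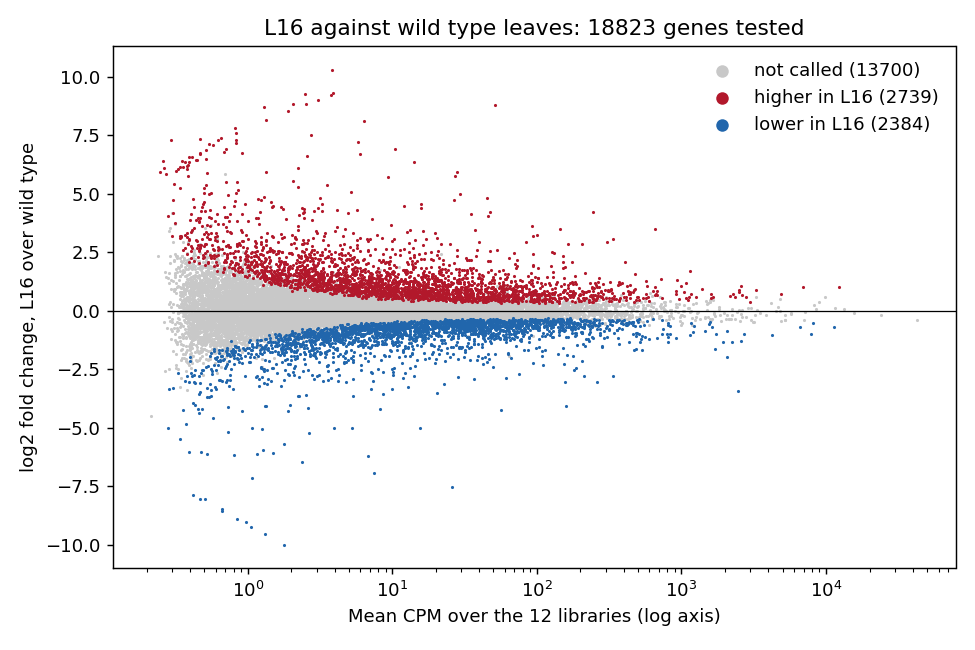
Log2 fold change of L16 over the wild type (vertical axis) against the mean CPM over the 12 libraries (horizontal log axis), with 1 dot per tested gene. The 2739 upregulated genes are red, the 2384 downregulated genes are blue, and the 13700 genes that did not pass the threshold are gray. Dots at the far top and bottom at low CPM include genes with no counts in all libraries of 1 genotype, whose fitted fold changes depend on the small count added by the model.

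Upregulated genes made up a growing part of the differentially expressed genes as the size of the change increased. Among 427 genes with an absolute log2 fold change under 0.5, 174 were upregulated (40.7%). The share was 47.2% of 2114 genes between 0.5 and 1, 56.5% of 1763 genes between 1 and 2, 68.3% of 492 genes between 2 and 3, and 71.9% of 327 genes at 3 or more. Of all tested genes, 2582 (13.7%) were called with a change of 2-fold or more, 1567 of them upregulated and 1015 downregulated. This count was 958 with the SIRV4 and SIRV7 share as a covariate, 1547 with the spike-in component, and 1356 among genes with at least 5 CPM in 3 libraries. The same order was seen within well-expressed genes. Among called genes with a mean of at least 10 CPM, upregulated genes were 171 of 424 in the smallest size class, 729 of 1531, 349 of 622, and 58 of 95 in the next ones, and 30 of 40 in the largest.

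The order of the 5 size classes was the same under RLE scaling, upper-quartile scaling, no scaling factor, and scaling to the spike-ins, where the smallest class held only 7 genes, while the shares moved. It was also kept without any 1 of the wild type libraries. Without any 1 of the transgenic libraries, the share in the largest class was no longer above that in the class before it, and without L16 replicate 1 the shares were 49.2%, 48.7%, 56.7%, 63.7%, and 63.0%. The last step was likewise lost with DESeq2 (69.3% and 69.2%), with no filter on low counts (68.5% and 68.3%), and with only the libraries compared (67.8% and 64.8%). Under upper-quartile scaling the shares were 36.5% in the smallest and 70.4% in the largest class, and with no scaling factor 49.8% and 75.3%. With the SIRV4 and SIRV7 share as a covariate the order was lost, with 72.5% of the genes between 0.5 and 1 upregulated and 54.6% of those between 1 and 2. It was also lost with the spike-in component, where the shares were 62.9%, 57.4%, 57.0%, 61.8%, and 71.0% from the smallest to the largest class. Of the 327 genes in the largest class, 48 had no counts in the wild type libraries and 11 had none in the L16 libraries, and their fitted values are not measured folds. Without them, 187 upregulated and 81 downregulated genes remained in the class (69.8% upregulated). With these genes set at the bound that 3 counts allow, the median log2 fold changes were 1.13 in the upregulated and -0.90 in the downregulated genes. These genes all came from the largest class, so that the medians could hardly move. The classes were not sorted again at the bound.

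The share of tested genes that were called increased with expression level up to 1000 CPM. It was 11.2% of 3317 genes with a mean under 1 CPM, 23.6% of 8650 genes between 1 and 10 CPM, 38.7% of 5460 genes between 10 and 100 CPM, 43.7% of 1262 genes between 100 and 1000 CPM, and 35.1% of 134 genes at 1000 CPM or more. The median standard error of the log2 fold change was 0.69 in the lowest class and 0.15 between 100 and 1000 CPM, and small changes passed the test only in well-counted genes. The smallest absolute log2 fold change that was called was 1.29 under 1 CPM, against 0.31 between 100 and 1000 CPM. The called changes were accordingly larger in the lower classes. Called genes had a median absolute log2 fold change of 2.79 under 1 CPM, 1.27 between 1 and 10 CPM, 0.76 between 10 and 100 CPM, 0.68 between 100 and 1000 CPM, and 0.80 above that.

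Over all tested genes, called or not, the median absolute log2 fold change was 0.77 under 1 CPM and between 0.36 and 0.49 in the 4 higher classes. The direction of the called genes also differed by level. Upregulated genes were 64.9% of those called under 1 CPM and 56.9% between 1 and 10 CPM. They were 50.05% between 10 and 100 CPM and 46.1% between 100 and 1000 CPM. Of the 134 most expressed genes 47 were called, 25 upregulated and 22 downregulated, and 13 of these changed by 2-fold or more, of which 10 were downregulated. With upper-quartile scaling, the shares of upregulated genes were 64.2%, 53.9%, 45.6%, 41.8%, and 46.7% from the lowest to the highest class. The filter and the mean CPM used all 12 libraries, most of them transgenic. Low-count genes raised in several lines could therefore pass the filter through more libraries than genes lowered in them. The part of this in the shares was not tested. With only the libraries compared the shares were 54.1%, 58.1%, 50.2%, 45.9%, and 46.4%, so that the lowest class was not the most upregulated. Without wild type replicate 3 they were 68.8%, 56.7%, 49.3%, 51.0%, and 62.3%, with a rise above 100 CPM. The fall with level was also lost with the spike-in covariates. With the SIRV4 and SIRV7 share, 81.8%, 53.9%, 61.7%, and 76.9% were upregulated in the 4 lower classes and 8 of 10 genes in the highest, and with the spike-in component 68.9%, 57.8%, 58.2%, 63.9%, and 60.0%.

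**Figure D2:**
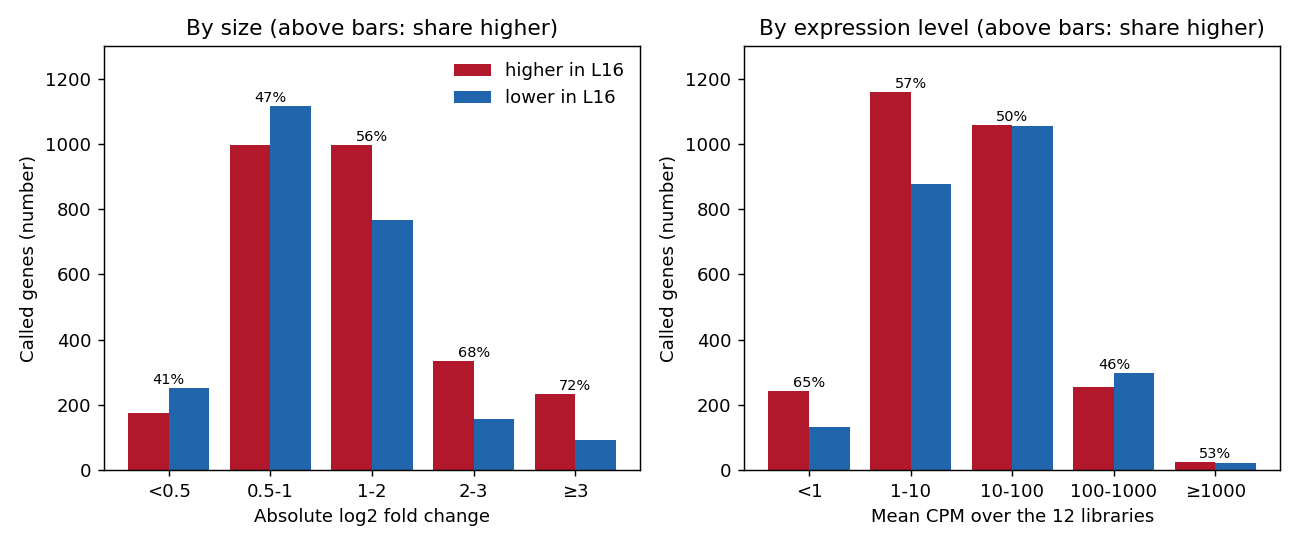
Number of genes called between L16 and the wild type (vertical axes), upregulated in red and downregulated in blue, by absolute log2 fold change (left) and by mean CPM over the 12 libraries (right). The percentage above each pair of bars is the upregulated share, which runs from 41% to 72% with size and from 65% under 1 CPM to 46% between 100 and 1000 CPM. The filter and the mean CPM include the lines L14 and L15, which favors upregulated genes at low CPM.

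The differentially expressed genes held about the same part of the transcript pool in both genotypes. Together they took 35.7% ± 1.10 (SD, n = 3) of the gene counts in L16 and 36.2% ± 1.083 (SD, n = 3) in the wild type. The upregulated genes took 22.9%, 22.2%, and 19.8% of the counts in the L16 libraries, against 11.9%, 10.7%, and 11.4% in the wild type libraries. The downregulated genes took 13.2%, 14.4%, and 14.7% in the L16 libraries, against 24.1%, 26.6%, and 23.7% in the wild type libraries. These sums follow from the direction of the calls and are given as sizes only. The similar totals also follow largely from the calls, because the remaining counts lay in genes without a called change. Upregulated genes of 2-fold or more made up 5.37% ± 0.575 of the L16 counts, against 1.82% ± 0.136 of the wild type counts (SD, n = 3 each). Downregulated genes of 2-fold or more made up 3.28% ± 0.282 of the L16 counts, against 8.57% ± 0.863 of the wild type counts (SD, n = 3 each). The difference between the genotypes was -5.29 percentage points for the 1015 downregulated genes and 3.56 percentage points for the 1567 upregulated genes.

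In each direction 2 identifiers are described, the one with the largest fold change and the one with the largest difference in CPM. Both come from the called genes that did not overlap between the genotypes and had at least 10 counts in each of the 6 libraries, 1993 upregulated and 2023 downregulated genes.

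Among these genes, Nitab4.5_0000786g0230 had the largest increase, with 107.4, 148.7, and 59.2 CPM in the L16 libraries, against 5.70, 2.55, and 1.97 CPM in the wild type libraries. All L16 libraries lay at least 10 times above every wild type library. The log2 fold change was 4.99 ± 0.57 (SE), or 31.9-fold (edgeR adjusted p = 2.18e-05). The other lines did not pass the test against the wild type, with a mean of 3.70 ± 1.90 CPM in L14 and 5.11 ± 4.74 CPM in L15 (SD, n = 3 each). L16 was higher than the mean of L14 and L15 by 4.64 ± 0.42 (SE) on the log2 scale (edgeR adjusted p = 3.33e-05). This p-value does not allow for the choice of the gene by its L16 values. Raw counts in the L16 libraries were 1784, 2961, and 927.

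Nitab4.5_0000363g0260 had the largest gain in CPM, with 18193, 15695, and 12720 CPM in the L16 libraries, against 7473, 7871, and 7998 CPM in the wild type libraries. The groups did not overlap, and the spread was 2740 CPM in L16 and 274 CPM in the wild type (SD, n = 3 each). The mean difference was 7755 CPM and the log2 fold change was 1.00 ± 0.18 (SE, edgeR adjusted p = 0.000833). With the SIRV4 and SIRV7 share as a covariate it did not pass the threshold, with a log2 fold change of 0.45 and an adjusted p of 0.228 from edgeR's test. The means of 12881 CPM in L14 and 13158 CPM in L15 were also above the wild type, and the difference between L16 and these lines did not pass the test (log2 fold change 0.26 ± 0.15, SE, edgeR adjusted p = 0.465).

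Among the downregulated ones, Nitab4.5_0000365g0010 had the largest decrease, with 1.93, 1.05, and 2.36 CPM in the L16 libraries, against 9.16, 40.9, and 121.0 CPM in the wild type libraries. The L16 values lay close together, while the wild type values spread over more than 10-fold. The log2 fold change was -5.02 ± 0.69 (SE, edgeR adjusted p = 0.000101), and without wild type replicate 3 it was -3.84 (adjusted p = 0.000104). With the SIRV4 and SIRV7 share as a covariate the adjusted p was 0.0872 at a log2 fold change of -4.30. L14 and L15 had means of 2.10 and 1.06 CPM.

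Nitab4.5_0000037g0280 had the largest loss in CPM, with 668.7, 483.0, and 857.6 CPM in the L16 libraries, against 2628, 8600, and 10564 CPM in the wild type libraries. The lowest wild type library was 3 times above the highest L16 library. The mean difference was -6594 CPM and the log2 fold change was -3.44 ± 0.40 (SE, edgeR adjusted p = 2.50e-05). L14 and L15 had means of 1213 and 775.0 CPM. In both downregulated genes replicate 1 of the wild type was the lowest of its group, and in both upregulated genes replicate 3 of L16 was the lowest of its group.

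**Figure D3:**
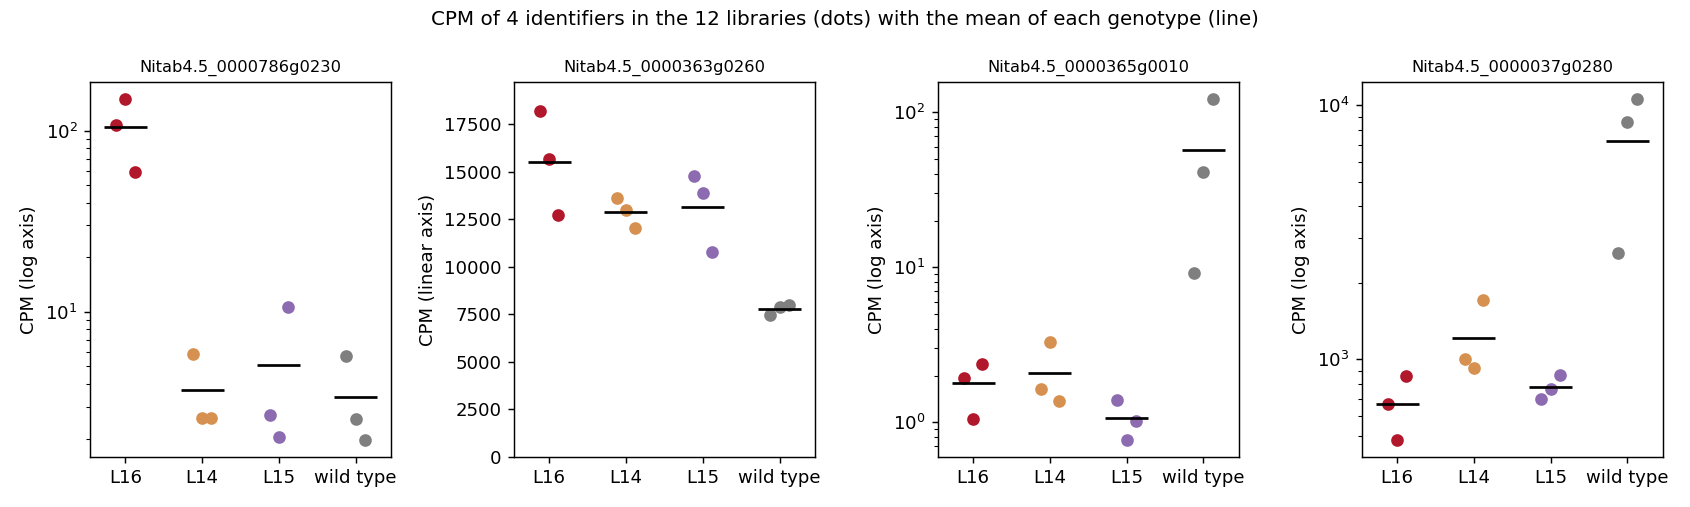
CPM of the 4 identifiers (vertical axes, log scale except for Nitab4.5_0000363g0260, which has a linear axis from 0) in the libraries of L16, L14, L15, and the wild type. Each dot is a library and each line the mean of 3. Nitab4.5_0000786g0230 was high only in the L16 libraries (mean 105.1 CPM), while the other 3 identifiers lay on the L16 side in L14 and L15 as well.

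Some genes were counted in only 1 of the genotypes. With at least 10 counts in each L16 library and 0 counts in every wild type library, there were 16 identifiers, all of which were tested and called. They had from 10 to 194 counts in the L16 libraries, and taking 3 counts per library as the floor they were at least 3.64-fold to 49.1-fold higher in L16. Of these, 11 had at least 10 counts in every L14 library, 12 in every L15 library, and 10 in both. That the 16 were called follows from the rule that chose them. The opposite pattern, with 0 counts in every L16 library and at least 10 in every wild type library, was found for 14 identifiers. Their counts lay between 10 and 165 in the wild type libraries, and they were at least 4.86-fold to 39.1-fold lower in L16. Only 10 of the 14 passed the filter on low counts, and all 10 were called, which again follows from the rule. The filter ran over the 12 libraries, and no identifier of the 14 had at least 10 counts in every L14 or every L15 library. In L14 8 of the 14 were also at 0 in every library, in L15 7, and in both lines 6.

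The identifier names also carry a scaffold number, the digits before the letter g, and an order along the scaffold. Among the 15827 pairs of tested genes that were next to each other on a scaffold, both were called in 1187. When the first gene of a pair was called, the second was called in 27.5% of pairs, beside 26.8% of all pairs. When both were called, they changed in the same direction in 638 of the 1187 pairs (53.7%), for which no background share was computed. A called gene was thus about as often followed by another called gene as any tested gene was. Runs of at least 3 neighbours called in the same direction numbered 78, also without a background. The longest held 6 upregulated and 4 downregulated genes.

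The libraries of L16 and of the wild type varied to a similar extent among themselves. The median SD of log2 CPM among replicates was 0.30 in L16 and 0.31 in the wild type, and 49.3% of the tested genes had the larger SD in L16. It was smaller in L14 (0.261) and L15 (0.245), which also entered the fit. The spread differed with direction. The upregulated genes had a median SD of 0.26 in L16 and 0.32 in the wild type, and the downregulated genes 0.23 in L16 and 0.21 in the wild type. In each direction the larger SD was in the genotype with the lower counts, where counting error is larger on the log2 scale. The part of this in the spread was not tested. Of the 5123 differentially expressed genes, 4822 (94.1%) had L16 and wild type values that did not overlap, beside 38.8% of all tested genes. The calls rest on these same values, so the higher share follows largely from the calls. The remaining 301 were called although at least 1 library overlapped with the other genotype. Conversely, 2473 genes did not overlap and did not pass the threshold.

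The direction of a change was also examined in libraries that had no part in calling the gene. L16 and wild type libraries with the same replicate number were left out together, genes were called from the other libraries, and the left-out L16 library was set against the left-out wild type library. With replicate 1 left out, 3005 of 3159 called genes changed in the same direction in the left-out libraries (95.1%), and with replicate 2 left out, 2748 of 2814 (97.7%). With replicate 3 left out, 4401 of 4932 did (89.2%). Over all tested genes, called or not, the same share was 73.1%, 75.2%, and 69.8% for replicates 1, 2, and 3. Genes with a fitted change of 2-fold or more had the same direction in 94.9%, 97.3%, and 89.8%, and smaller changes in 95.5%, 98.3%, and 88.5%, so that the share differed by less than 2 percentage points between large and small changes.

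The sizes in the left-out libraries were smaller for replicate 3. Upregulated genes had a median left-out difference of 1.10 on the log2 scale for replicate 1, 1.26 for replicate 2, and 0.70 for replicate 3, where the fits without them gave medians of 1.36, 1.29, and 1.25. Downregulated genes had medians of -0.91, -0.99, and -0.56, where the fits gave -1.09, -1.04, and -0.97.

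Replicate 3 of L16 lay nearer to the wild type than the other L16 libraries. Over genes called with that library left out, its median difference from the wild type mean was 0.86 for 2760 upregulated genes and -0.62 for 2505 downregulated genes. The other L16 libraries had medians of 1.20 and -0.92 over the same genes. They had a part in calling these genes, which by itself enlarges their medians. For replicate 1 of L16, over its own set of genes, the medians were 1.25 and -0.99, against 1.19 and -0.99 in the other L16 libraries. For replicate 2 they were 1.16 and -0.87, against 1.23 and -0.95. Over the 5123 genes called from all libraries, replicate 3 was the L16 library nearest to the wild type in 2642 (51.6%), beside 45.8% of all tested genes. The same library had the lowest SIRV4 and SIRV7 share of the L16 libraries, 8.30%, as replicate 3 did in the other genotypes, and a value of 1.11 on the first spike-in component, against -1.55 and -0.70 in L16 replicates 1 and 2 and from 1.37 to 1.75 in the wild type libraries. The part of this spike-in difference in the position of the library was not tested. Without L16 replicate 3, 5357 genes were called, 4458 of them among the 5123. Without replicate 1 or 2 of L16, 3601 and 3862 were called.

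**Figure D4:**
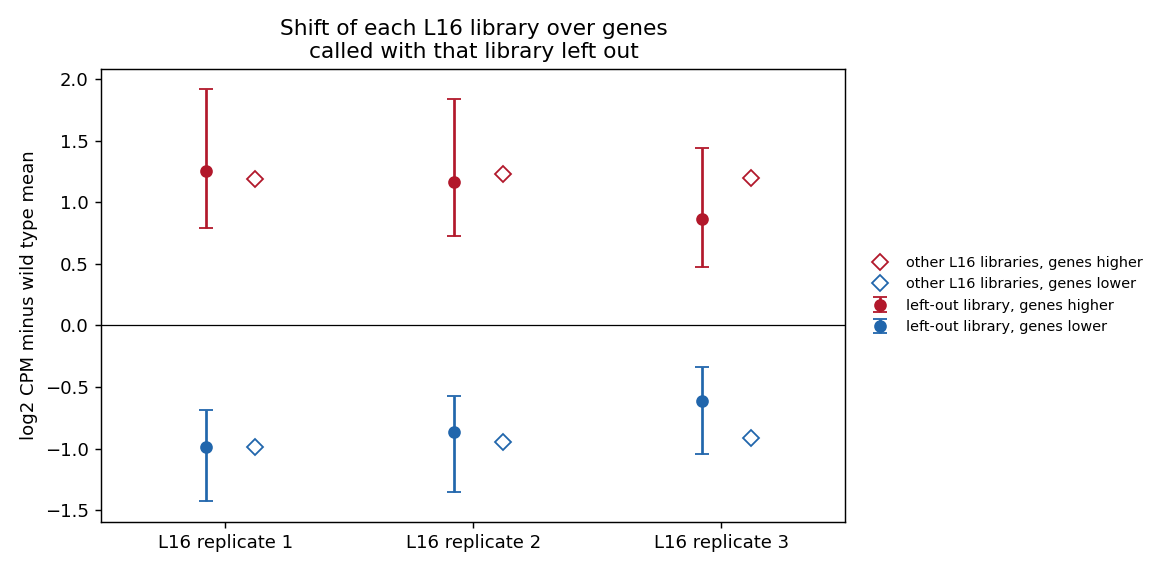
Median log2 CPM minus the wild type mean in each L16 library (filled circles, bars from the lower to the upper quartile over genes), over genes called as upregulated (red) or downregulated (blue) in a fit that left this library out. Open diamonds give the median of the other L16 libraries over the same genes. These other libraries had a part in calling the genes. Replicate 3 lay nearer to 0, at 0.86 and -0.62, against 1.20 and -0.92 in the other libraries.

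L16 lay farther from the wild type than the other lines did. The distance between mean profiles, computed from log2 CPM over the tested genes, was 122.9 for L16, 100.6 for L14, and 104.5 for L15. The distance of L16 exceeded the mean of the other lines by 20.4. L16 was chosen as the most shifted line of these libraries, so these distances are a description without a test. Single libraries of L16 and the wild type were 134.5 to 158.7 apart, against 84.0 to 101.3 between L16 libraries and 99.1 to 104.1 between wild type libraries.

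Set against the mean of L14 and L15, 402 of the 18823 genes (2.14%) differed in L16, 277 of them higher and 125 lower in L16 (edgeR's quasi-likelihood test, adjusted p-value under 0.05). The p-values of this test do not allow for the choice of L16 as the most shifted line of these libraries. The median difference was 1.13 on the log2 scale in the higher and -0.83 in the lower genes. Of the 402 genes, 363 were also called between L16 and the wild type, and the sign of the difference was the same in both comparisons for 360 of them. Both comparisons contain the L16 libraries. This count rested on single libraries, and without L16 replicate 2 it was 133. It was 253 without L14 replicate 2, 252 without L15 replicate 1, 232 without L15 replicate 2, and 255 without L16 replicate 1.

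Over the 2739 genes upregulated in L16, the median log2 fold changes against the wild type were 1.13 in L16, 0.71 in L14, and 0.80 in L15. Over the 2384 downregulated genes they were -0.90 in L16, -0.56 in L14, and -0.60 in L15. The 3 comparisons share the wild type libraries, and the genes were chosen on the L16 values, which by itself makes the L16 medians the largest. Of the 5123 genes, 363 differed between L16 and the mean of L14 and L15, beside 402 of all 18823 tested genes (2.14%). The L16 values that chose the 5123 genes also enter this comparison, which by itself raises their share.

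**Figure D5:**
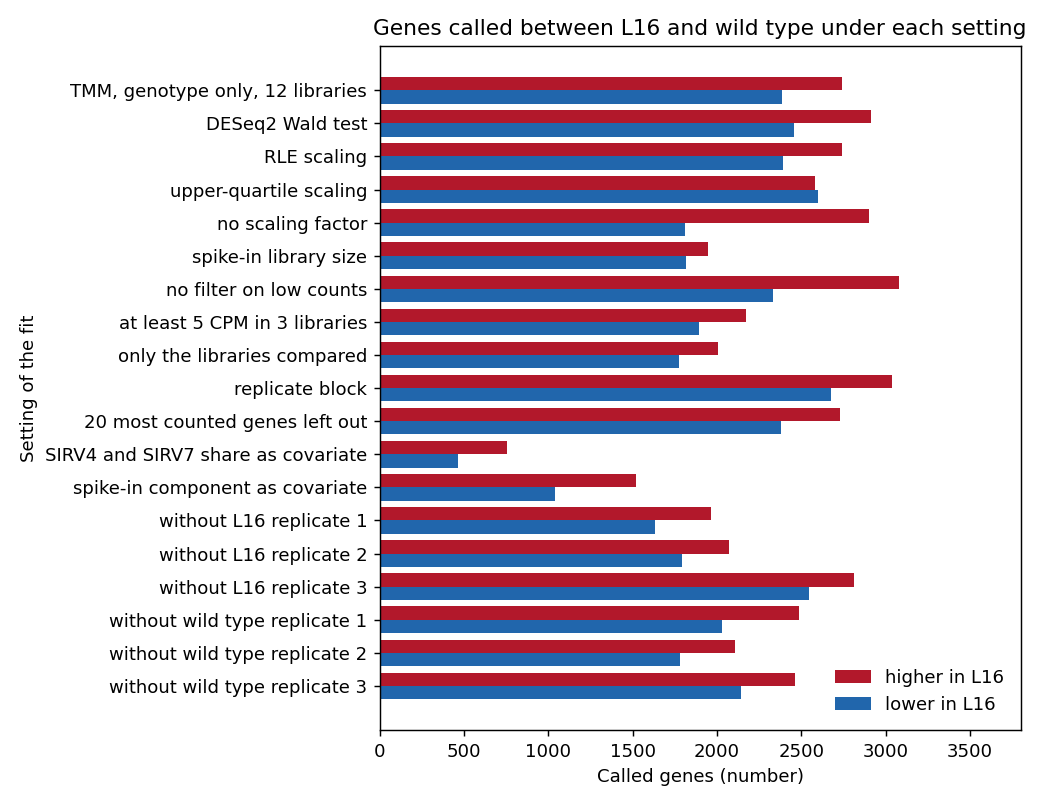
Number of genes called between L16 and the wild type (horizontal axis), upregulated in red and downregulated in blue, under each setting of the fit and with each L16 or wild type library left out. By the total of both directions, the bars run from 757 upregulated and 463 downregulated genes with the SIRV4 and SIRV7 share as a covariate to 3039 and 2679 with the replicate block, and upper-quartile scaling is the only setting with fewer upregulated than downregulated genes.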

How the data were processed

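RNA of leaves from 5-week-old plants was converted by the authors' sequencing provider into QuantSeq FWD 3' mRNA-Seq libraries, which were sequenced in 1 run. The authors deposited raw counts per NiTAB 4.5 identifier and library, made after STAR alignment and not normalized. The counting program, its strand setting and the versions are not given in the sources used here, so reads of near-identical copies in this tetraploid genome and of overlapping or antisense genes may be uncertain. The submitters' processing notes also name DESeq2. The 99 spike-in rows (92 ERCC, 7 SIRV) and 5 summary rows were kept out of library sizes and gene tests. Of the reads listed, between 33.4% and 38.1% lay outside genes and between 19.1% and 21.4% were not uniquely aligned in the 6 libraries compared.

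Counts were analysed with edgeR 4.0.16 in R 4.3.3: filterByExpr with its default minimum of 10 counts, TMM scaling, and the quasi-likelihood test, in a model with genotype as the only factor fitted to the 12 libraries. Standard errors were obtained as |log2 fold change|/√F. Log2 CPM values used a prior count of 2. DESeq2 1.42.0 was an alternative, beside other scalings, filters, sets of libraries, a replicate block, spike-in covariates and left-out libraries. No replicates agreed within counting noise (chi-square per degree of freedom of 24.0 or more). The members, lists and rules, including that for the 4 identifiers (largest fold change and largest CPM difference in each direction, among called genes whose groups did not overlap and with at least 10 counts in each of the 6 libraries), were chosen with earlier results of these data known. The fits were tested on simulated data. No genome of this build was used, so sequences and positions are not given.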

Additional observations from a re-analysis of the deposited data

Results flagged for a closer look

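The effect in L16 differed from that in the other transgenic lines for 402 genes, by a direct test of L16 against the mean of L14 and L15. For Nitab4.5_0000786g0230 this difference was 4.64 on the log2 scale. L16 and this gene were chosen from the same data, which the test does not allow for.

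The spike-ins are synthetic RNAs outside the main measurement. Of 62 spike-in sequences with a mean of at least 10 counts, 7 differed between L16 and the wild type (11.3%, 4 higher and 3 lower in L16, edgeR adjusted p-value under 0.05), and 26 at an unadjusted p under 0.05. The largest log2 fold changes among the 7 were 0.82 in ERCC-00043, -0.66 in ERCC-00108, and 0.64 in ERCC-00003. SIRV4 was higher in L16 by 0.43 ± 0.07 (SE) on the log2 scale (edgeR adjusted p = 0.00250) and SIRV7 by 0.51 ± 0.14 (SE, edgeR adjusted p = 0.0420). Together they took a mean of 9.64% of the spike-in counts in L16 and 6.96% in the wild type.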

How the results depend on the processing

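With the SIRV4 and SIRV7 share as a covariate, 1220 genes were called between L16 and the wild type (757 upregulated, 463 downregulated), and with the first spike-in component 2561 (1519 and 1042). The other 10 alternatives with all libraries of both genotypes kept these counts within 1.5 times. Higher minus lower genes numbered 355, and -16 with upper-quartile scaling, 133 with spike-in library size, 229 with only the libraries compared, 747 with no filter, and 1096 with no scaling factor. Over the 12 fits without 1 library, calls ranged from 3601 to 5357, upregulated genes from 1967 to 2810, and downregulated genes from 1634 to 2547.

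Between L16 and the mean of L14 and L15, in place of 402 genes, DESeq2's Wald test gave 761, no filter 910, only the libraries compared 619, the SIRV4 and SIRV7 share 698, the spike-in component 700, and fits without 1 library from 133 to 574. The causes were not tested. The excess distance of L16 from the wild type was 20.4, 7.93 over the 500 most variable genes, and between 17.8 and 29.0 under the other alternatives. Leaving out libraries there was added after the data were examined.

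By correlations of deviations, replicate numbers did not pair L16 with the wild type (-0.0015, 0.048, and 0.045 in replicates 1, 2, and 3). With L14 (0.239, -0.050, and 0.158) and L15 (0.164, 0.056, and 0.188) the values were higher in replicates 1 and 3 than in replicate 2. Replicate 3 also had the lowest SIRV4 and SIRV7 share in every genotype. The replicate number can thus carry a shared difference, which the main model leaves out. With the replicate block, 5718 genes were called between L16 and the wild type, 702 between L16 and the other lines, and 18 spike-ins in place of 7. Without 1 library, from 1 to 21 spike-ins were called, 21 without L16 replicate 3 and at most 2 without any other L16 or wild type library.

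Depth limited the lowest class most, where no change under 1.29 on the log2 scale was called.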
